A study of Mus musculus with 6 samples.

Results

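Autophagy is the route by which cells enclose part of their own content in a double membrane and deliver it to the lysosome. The autophagy machinery and cargo receptors were taken as the rows of the deposited gene table whose symbol starts with Atg and a digit (19 rows) or is one of 22 named genes, which gave 41 of the 26096 rows. The RNA came from wild-type (WT) microglia of the mouse, the macrophages that reside in brain tissue. FeM CM samples (n = 3) had received medium from bone marrow-derived macrophages (BMDMs) in ferroptosis, a form of iron-dependent cell death with oxidised membrane lipids, and C CM samples (n = 3) medium from normal BMDMs. The sources used here state neither how ferroptosis was induced nor how long the medium was applied, nor the origin and age of the microglia.

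The depth was 39624311 to 41953603 reads assigned to genes in the FeM CM libraries and 43419446 to 50557794 in the C CM libraries. The labels do not say whether samples of one medium are separate cultures. The p-values therefore reflect the spread of these particular samples, and that spread may be technical. Among 9 markers of microglia and macrophages, Csf1r averaged 58590 normalized counts with FeM CM and 76240 with C CM, whereas the homeostatic microglial markers P2ry12 and Tmem119 had 3 and 21 reads over the 6 libraries. The summed level of these 9 markers was 94560 to 98670 normalized counts with FeM CM and 119400 to 124300 with C CM. Csf1r and Cd68 made up most of these sums. Of the 7 markers tested, 1 was called higher and 4 lower, against 19.7% and 22.8% of all genes tested. The higher call was Adgre1, at 3132 with FeM CM and 1892 with C CM. Trem2 had the largest fall, at 1232 with FeM CM and 3166 with C CM. Summed levels of markers of other cell types, 5 listed for each, also stood apart between the media. The 4 astrocyte markers found summed to 1152 to 1217 normalized counts with FeM CM and 880 to 977 with C CM, and the 3 oligodendrocyte markers found to 4174 to 4373 with FeM CM and 6561 to 7011 with C CM. Members of these lists did not move together. Gja1 averaged 1084 normalized counts with FeM CM and 769 with C CM and was called higher, whereas Aldh1l1 averaged 79.9 with FeM CM and 124 with C CM and was called lower, and Gfap did not pass. Mbp, at 4101 with FeM CM and 6608 with C CM, made up nearly all of the oligodendrocyte sum and was called lower, whereas Mag, at 141 with FeM CM and 68.9 with C CM, was called higher. The sums were 55.3 to 69.6 with FeM CM and 5.88 to 16.6 with C CM for 2 neuronal markers. Of these, Tubb3 averaged 61.3 with FeM CM and 4.99 with C CM and was called higher. The other, Map2, averaged 1.02 with FeM CM and 5.6 with C CM and was too low to test. For 4 fibroblast markers the sums were 39.3 to 77.5 with FeM CM and 11.8 to 21.9 with C CM. Only Dcn among them was called, higher, at 40.4 with FeM CM and 8.49 with C CM. For 3 neutrophil markers the sums were 136 to 160 with FeM CM and 9.25 to 15.7 with C CM, nearly all of it S100a8. The listed markers Aqp4, Mog, Olig2, Rbfox3, Snap25, Syt1, Pdgfra, Ly6g and S100a9 were not found by symbol among the 26096 deposited genes. All of those genes had reads in some library, so a marker with none would not be among them. Of the markers found, the defining genes Slc1a3, Col1a1, Col1a2, Elane and Mpo had 1 to 10 reads in all. The part of such cells in the results was not tested. In bulk RNA, a change in how many cells express a gene and a change in RNA per cell cannot be told apart.

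Autophagy starts when the ULK1 kinase complex, which senses nutrient and energy supply, switches on a lipid kinase complex built around VPS34, and the phosphoinositide it makes recruits WIPI proteins to the growing membrane. ATG2 and ATG9 supply lipid, and enzymes resembling those of ubiquitin attach small LC3 and GABARAP proteins to it. Cargo receptors bind both the cargo and LC3 or GABARAP, so that damaged organelles, protein aggregates or parts of the endoplasmic reticulum are taken up selectively. In microglia and other macrophages, parts of the same machinery also attach LC3 to phagosomes.

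More genes of the machinery were higher than lower with FeM CM, led by Wdr45, Wipi2, Rb1cc1, Gabarapl1 and Vmp1, while Atg9b fell. A filter of 10 normalized counts, reached in 3 or more libraries, left 40 genes. Of these, 22 were higher with FeM CM and 1 was lower, tested across all genes with limma at a Benjamini-Hochberg adjusted p of 0.05. Higher calls thus made up 55% of these genes, against 19.7% of the 15597 genes tested, and lower calls 2.5%, against 22.8%. All 40 had a mean of at least 100 normalized counts, and among the 11497 genes at or above that level 23.5% were called higher and 28.8% lower. The FeM CM libraries all lay above the C CM libraries in 25 of the 40 genes, against 3986 of all 15597 genes tested (25.6%). They all lay below them in 3 of the 40, against 4394 of the 15597 (28.2%). The median log2 fold change (FeM CM over C CM, on the log2 of normalized count plus 1) was 0.24 over the 40 genes and -0.005 over all genes tested.

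**Figure D1:**
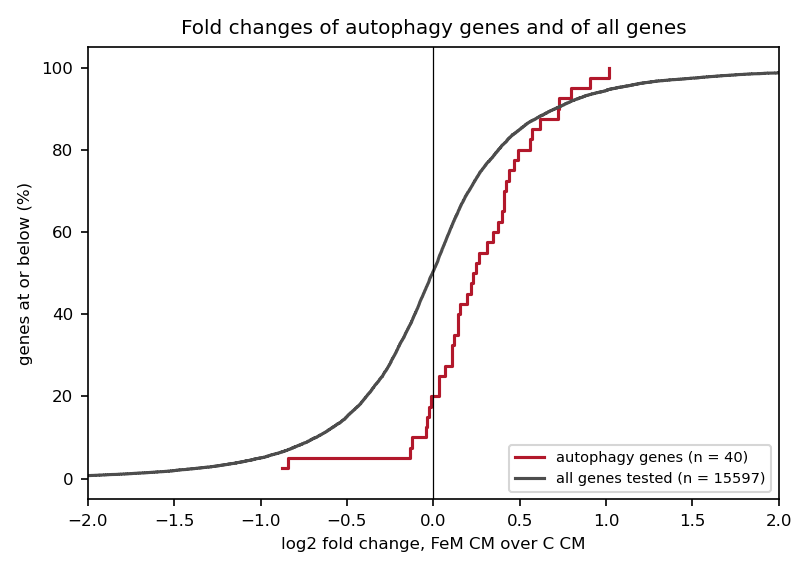
Cumulative share of genes (y axis, percent) at or below each log2 fold change of FeM CM over C CM (x axis, cut at 2 in both directions), for the 40 autophagy genes tested (red) and all 15597 genes tested (grey). The red line lies right of the grey one over most of its length, with medians of 0.24 and -0.005, and reaches its end at 1.01.

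The changes were modest in size. Among the 22 higher genes the log2 fold change ran from 0.14 to 1.01 with a median of 0.43, and 8 of them reached 0.5. A change of at least 1 on the log2 scale was reached by 1 gene, Wdr45 (2.5% of the 40, against 7.65% of all genes tested). Of the 17 genes that did not pass, 10 had a positive log2 fold change and 7 a negative one. Optn, which encodes the mitophagy receptor optineurin, had 12 reads over the 6 libraries and was below the filter, so no difference could be tested. Of the 23 called genes, 15 kept their call in all 13 alternative settings tried at that threshold, including leaving out each library, and the other 8 (Ulk1, Ulk2, Atg10, Map1lc3a, Atg4c, Tax1bp1, Tex264 and Atg4a-ps) lost it in at least 1.

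**Figure D2:**
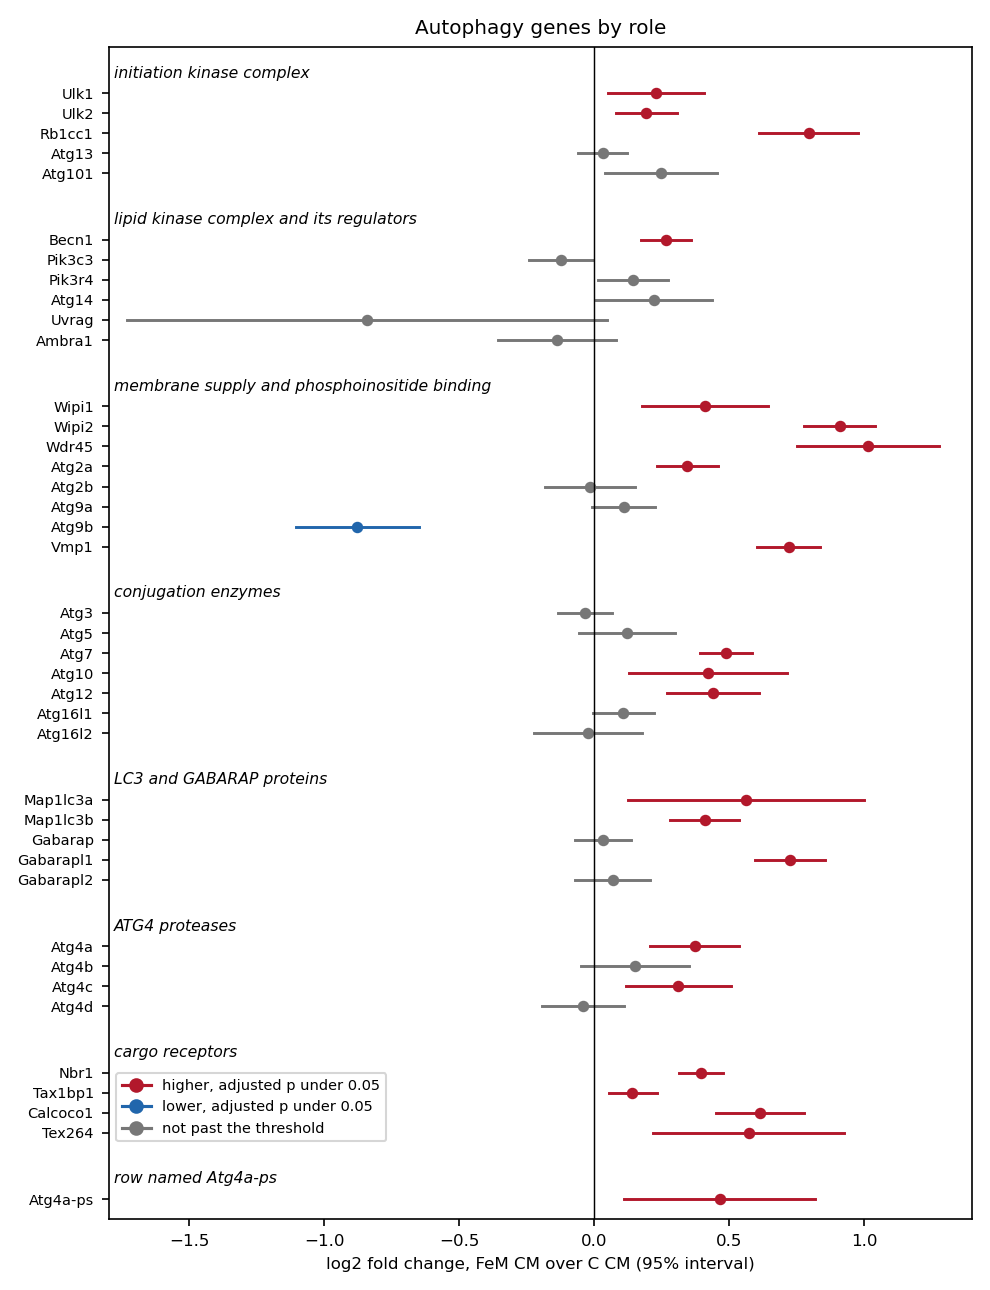
Log2 fold change of FeM CM over C CM (points, x axis) with its 95% interval from limma (lines) for each of the 40 tested genes (y axis), grouped by role. The genes past the threshold lie right of 0 except Atg9b at -0.88, and the interval of Uvrag is the widest, from -1.73 to 0.05.

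In the initiation kinase complex, 3 of 5 genes rose (60%, against 19.7% of all genes tested). The largest rise was that of the scaffold Rb1cc1 (FIP200), on which the complex assembles. Rb1cc1 (ENSMUSG00000025907) had 1420, 1492 and 1567 normalized counts in the FeM CM libraries and 788, 857 and 940 in the C CM libraries. Every FeM CM library was thus well above every C CM library, and the log2 fold change was 0.79, with an SE of 0.08 (limma adjusted p = 6.43e-05). In GENCODE M21, 3.8% of its exon bases lie under the antisense gene 4732440D04Rik, which was itself called higher (log2 fold change 1.11).

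The paralogous kinases Ulk1 and Ulk2, which phosphorylate the machinery at the start of autophagy, rose by less. Ulk1 had 1360, 1167 and 1247 normalized counts with FeM CM and 1012, 1135 and 1070 with C CM (log2 fold change 0.23, SE 0.08; limma adjusted p = 0.0416). The lowest FeM CM library lay close above the highest C CM library, and the call was lost without FeM CM replicate 1 (limma adjusted p = 0.12), FeM CM replicate 3 (0.0819), C CM replicate 1 (0.13) or C CM replicate 3 (0.0918). Ulk2 had 1891, 1865 and 1864 normalized counts with FeM CM and 1662, 1585 and 1669 with C CM, groups that did not overlap (0.19, SE 0.05; limma adjusted p = 0.0126, and 0.0505 without C CM replicate 2). The log2 difference between Ulk1 and Ulk2 in a library was -0.58 ± 0.10 with FeM CM and -0.61 ± 0.12 with C CM (SD, n = 3 each; two-sided exact permutation p = 0.7).

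The other subunits of that complex did not pass. Atg13, the adaptor that links the kinases to FIP200, had 4118 to 4385 normalized counts with FeM CM and 4107 to 4138 with C CM (log2 fold change 0.03, 95% interval -0.06 to 0.12). Atg101, which stabilises ATG13, had 1036 to 1269 with FeM CM and 907 to 1040 with C CM (0.25, SE 0.09; limma adjusted p = 0.0558, and 0.0173 without FeM CM replicate 3).

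The lipid kinase complex, which makes phosphatidylinositol 3-phosphate on the forming membrane, had 1 of 6 genes called higher (16.7%, near the 19.7% of all genes tested). Becn1 (Beclin 1), its regulatory core, rose, with 3863, 3660 and 3797 normalized counts in the FeM CM libraries and 3155, 3163 and 3096 in the C CM libraries (log2 fold change 0.27, SE 0.04; limma adjusted p = 0.000781). The groups were well apart relative to their spread. In GENCODE M21, 43.9% of the exon bases of Becn1 lie under exons of Cntd1 on the opposite strand, whose own log2 fold change was -0.08 and did not pass. The sources used here do not say whether reads were counted by strand, so reads of genes that overlap on opposite strands may not be told apart.

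The catalytic subunit Pik3c3 (VPS34) had 1519 to 1588 normalized counts with FeM CM and 1654 to 1749 with C CM, groups that did not overlap, and a log2 fold change of -0.12 that did not pass (limma adjusted p = 0.0893). Pik3r4, its membrane-anchoring partner VPS15, had 1506 to 1516 with FeM CM and 1297 to 1424 with C CM (0.14; limma adjusted p = 0.0756). Atg14, which directs the complex to autophagosome formation, had 626 to 706 with FeM CM and 509 to 601 with C CM (0.22; limma adjusted p = 0.0937). The libraries of both genes were thus higher with FeM CM without passing. Ambra1, a scaffold and regulator of Beclin 1, had 3024 to 3870 with FeM CM and 3519 to 3970 with C CM (-0.14; limma adjusted p = 0.284, and 0.0252 without FeM CM replicate 1).

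Uvrag, which stands in for ATG14 in the form of the complex that serves endosomes and the maturation of autophagosomes, had a difference whose size rested on 1 library. It had 1850, 1759 and 1754 normalized counts in the FeM CM libraries and 2491, 5244 and 2515 in the C CM libraries, so that all FeM CM libraries were lower and C CM replicate 2 held about as many counts as the other C CM libraries together. It did not pass, at a log2 fold change of -0.84 with an SE of 0.34 (limma adjusted p = 0.115). Without C CM replicate 2 the log2 fold change was -0.49 and passed (limma adjusted p = 0.000363). Antisense Gm45187, below the filter, covers 17.6% of the Uvrag exon bases in GENCODE M21.

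Genes for membrane supply and phosphoinositide binding held the largest changes in both directions. Of these 8 genes, 5 were higher (62.5%, against 19.7% of all genes tested) and 1 was lower (12.5%, against 22.8%). The WIPI family of propeller-shaped proteins reads out phosphatidylinositol 3-phosphate, and its 3 members among these genes all rose. Wdr45 (WIPI4, ENSMUSG00000039382), which partners ATG2 and whose human counterpart is mutated in a neurodegeneration with brain iron accumulation, had 889, 885 and 1142 normalized counts in the FeM CM libraries and 458, 458 and 518 in the C CM libraries. The lowest FeM CM library thus stood far above the highest C CM library, and the log2 fold change was 1.01, with an SE of 0.11 (limma adjusted p = 0.000131). It was also the 1 gene of the 41 in the authors' shorter deposited table of changed genes, which holds 1699 genes against 26096 in the full one. There its FPKM values were 5.52, 5.50 and 6.99 with FeM CM and 2.87, 2.85 and 3.22 with C CM. In the full table the authors' false discovery rate was under 0.05 for 22 higher genes of the 41 and 1 lower. In GENCODE M21, 24.7% of the Wdr45 exon bases are shared on the same strand with Gm45208, which was below the filter.

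Wipi2 (ENSMUSG00000029578), which recruits the ATG16L1 conjugation complex to the membrane, had 7525, 7156 and 8149 normalized counts with FeM CM and 3900, 3959 and 4291 with C CM. The groups lay far apart relative to their spread (log2 fold change 0.91, SE 0.06; limma adjusted p = 3.8e-06). Wipi1 had 468, 398 and 455 with FeM CM and 308, 340 and 345 with C CM, and also rose (0.41, SE 0.10; limma adjusted p = 0.0113). Per length, Wipi1 was the lowest of the family, at 2.31 ± 0.19 RPKM (reads scaled to exon length and library size) with FeM CM and 1.76 ± 0.10 with C CM (SD, n = 3 each). Wipi2 had 16.7 ± 0.90 RPKM with FeM CM and 9.01 ± 0.42 with C CM.

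Wdr45b (WIPI3), the remaining family member and not part of the rule, had 11.8 ± 0.58 RPKM with FeM CM and 11.5 ± 0.52 with C CM (log2 fold change 0.06; limma adjusted p = 0.372). The shares of Wipi2 and Wdr45b in the family did not overlap between the media. Wipi2 held 43.5% to 45.2% of the summed RPKM of these 4 genes in the FeM CM libraries and 34% to 36.3% in the C CM libraries, and Wdr45b held 28.7% to 33.6% with FeM CM and 42.8% to 46.5% with C CM.

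Vmp1 (ENSMUSG00000018171), a lipid scramblase of the endoplasmic reticulum needed for autophagosomes to close off from it, had 8471, 9492 and 9610 normalized counts with FeM CM and 5562, 5498 and 5647 with C CM (log2 fold change 0.72, SE 0.05; limma adjusted p = 7.08e-06). Its C CM libraries were nearly level and all far below the FeM CM libraries. In GENCODE M21, 2.38% of the Vmp1 exon bases are shared on the same strand with the microRNA gene Mir21a, which was not among the genes tested. The lipid transfer protein gene Atg2a had 3852, 3471 and 3755 with FeM CM and 2850, 2962 and 2902 with C CM (0.34, SE 0.05; limma adjusted p = 0.000569), whereas its paralog Atg2b had 5051, 5240 and 4651 with FeM CM and 5056, 4589 and 5478 with C CM, groups that overlapped throughout (limma adjusted p = 0.885).

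The scramblases ATG9A and ATG9B are transmembrane proteins of the vesicles that seed the autophagosome. Atg9b (ENSMUSG00000038295) was the 1 gene that fell, with 367, 341 and 425 normalized counts in the FeM CM libraries and 675, 706 and 695 in the C CM libraries (log2 fold change -0.88, SE 0.10; limma adjusted p = 0.000132). Its highest FeM CM library was well below its lowest C CM library. In GENCODE M21, 7.45% of the Atg9b exon bases lie under exons of Nos3 on the opposite strand, and Nos3 was called higher, with a log2 fold change of 1.89. Atg9a had 4699, 4256 and 4386 with FeM CM and 4122, 4291 and 3947 with C CM, and did not pass (0.11; limma adjusted p = 0.12). Per length, Atg9a was the more abundant, at 17.9 ± 1.01 RPKM with FeM CM and 16.8 ± 0.78 with C CM, whereas Atg9b had 2.21 ± 0.23 with FeM CM and 4.11 ± 0.09 with C CM (SD, n = 3 each).

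**Figure D3:**
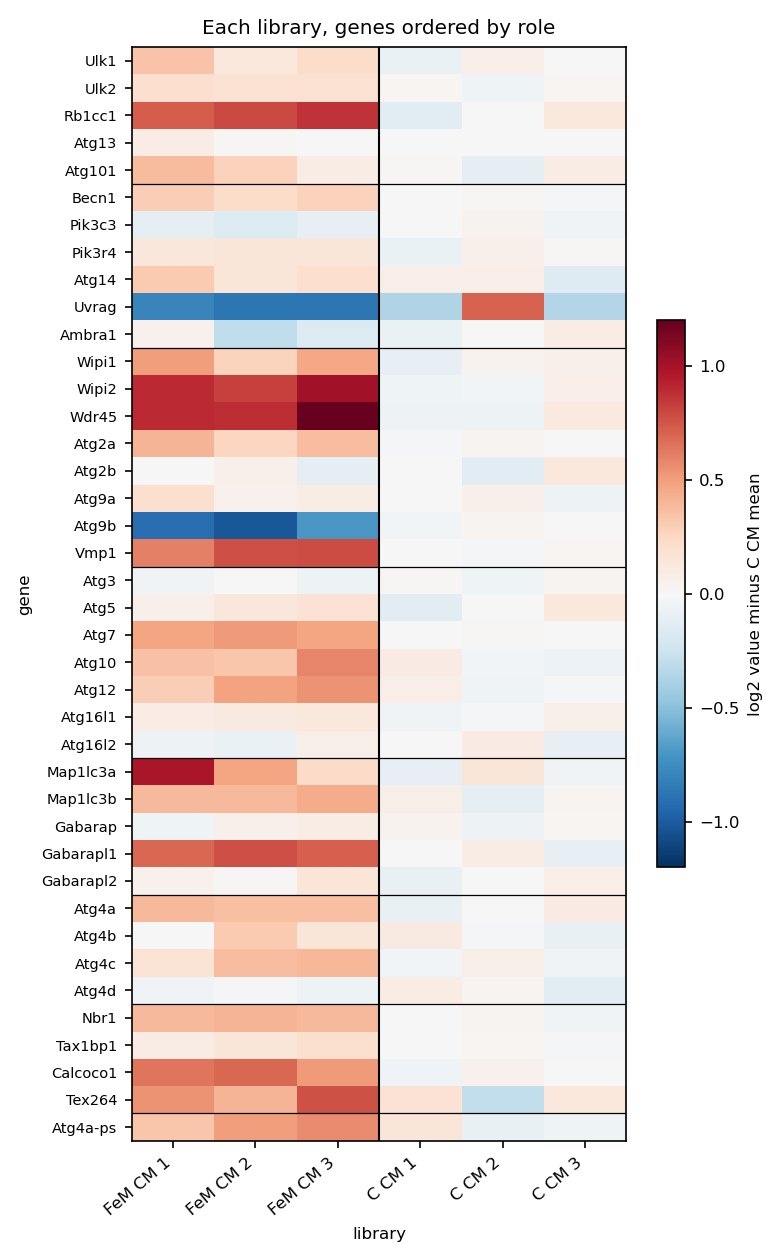
Log2 value of each of the 40 tested genes (y axis, ordered by role, roles parted by lines) in each library (x axis), minus the mean of the C CM libraries for that gene, with red for higher and blue for lower. Wipi2, Wdr45, Vmp1, Rb1cc1 and Gabarapl1 are red in all 3 FeM CM libraries, Atg9b is blue in all 3, and Uvrag stands out in C CM replicate 2 with 5244 normalized counts.

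Of the 7 conjugation enzyme genes, 3 rose (42.9%, against 19.7% of all genes tested). Atg7 (ENSMUSG00000030314) encodes the E1-like enzyme that activates both ATG12 and the LC3 and GABARAP proteins, and had 2875, 2964 and 2888 normalized counts with FeM CM and 2061, 2101 and 2061 with C CM. Both groups were tight and far apart (log2 fold change 0.49, SE 0.04; limma adjusted p = 2.68e-05). Atg12, the ubiquitin-like protein joined to ATG5, had 1762, 2005 and 2078 with FeM CM and 1515, 1379 and 1408 with C CM (0.44, SE 0.07; limma adjusted p = 0.00141).

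Atg10, the E2-like enzyme for ATG12, had 206, 204 and 243 normalized counts with FeM CM and 173, 158 and 154 with C CM (0.42, SE 0.13; limma adjusted p = 0.0269). All its FeM CM libraries were higher, but the call was lost without FeM CM replicate 3 (limma adjusted p = 0.0832), C CM replicate 2 (0.072) or C CM replicate 3 (0.0794). The other E2-like enzyme, Atg3, which handles LC3 and GABARAP proteins, had 2888 to 3002 with FeM CM and 2907 to 3079 with C CM, a log2 fold change of -0.03 with a 95% interval of -0.13 to 0.07. The remaining parts of the enzyme complex that sets the site of LC3 attachment did not pass either. Atg5 had 1098 to 1184 normalized counts with FeM CM and 962 to 1144 with C CM (0.12; limma adjusted p = 0.25). Atg16l1 had 2300, 2324 and 2359 with FeM CM and 2091, 2131 and 2260 with C CM (0.11; limma adjusted p = 0.111), and Atg16l2 had 544, 535 and 595 with FeM CM and 568, 607 and 529 with C CM (-0.02; limma adjusted p = 0.853).

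The 5 LC3 and GABARAP genes encode the small proteins that coat the membrane and hold the receptors. Of these genes, 3 rose (60%, against 19.7% of all genes tested). Gabarapl1 (ENSMUSG00000030161) had 3149, 3351 and 3211 normalized counts in the FeM CM libraries and 1969, 2077 and 1833 in the C CM libraries (log2 fold change 0.73, SE 0.06; limma adjusted p = 1.45e-05). Map1lc3b, the LC3B gene most used as an autophagosome marker, had 3547, 3541 and 3674 with FeM CM and 2842, 2501 and 2771 with C CM (0.41, SE 0.06; limma adjusted p = 0.000393). For both genes the groups were far apart. In GENCODE M21, 28.3% of the exon bases of Gabarapl1 lie under exons of 1700101I11Rik on the opposite strand, which was below the filter.

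Map1lc3a varied more between libraries, with 359, 253 and 213 normalized counts with FeM CM and 169, 200 and 176 with C CM. The groups did not overlap, but FeM CM replicate 1 stood above the others (log2 fold change 0.56, SE 0.19; limma adjusted p = 0.0426). Without that library the log2 fold change was 0.35 (limma adjusted p = 0.105), and the call was also lost without FeM CM replicate 2 (0.0743) or C CM replicate 1 (0.117), 2 (0.0566) or 3 (0.105). The Gabarap and Gabarapl2 genes did not pass. Gabarap had 8509, 9172 and 9350 with FeM CM and 9046, 8436 and 8939 with C CM, and its log2 fold change of 0.03 had a 95% interval of -0.07 to 0.14. Gabarapl2 had 2162, 2103 and 2298 with FeM CM and 1960, 2092 and 2208 with C CM (0.07, 95% interval -0.07 to 0.21).

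Per length, Gabarap was the most abundant of the 5, at 113 ± 4.68 RPKM with FeM CM and 112 ± 3.98 with C CM (SD, n = 3 each). Gabarapl1 was next with FeM CM, at 37.2 ± 1.37 RPKM, and had 22.8 ± 1.53 with C CM, where it and Gabarapl2 (21.8 ± 0.73 with FeM CM and 21 ± 1.16 with C CM) lay within their spread. Map1lc3a was the least abundant, at 5.4 ± 1.54 RPKM with FeM CM and 3.61 ± 0.33 with C CM. Gabarapl1 held 19.2% to 20.2% of the summed RPKM of the 5 genes in the FeM CM libraries and 12.6% to 14.7% in the C CM libraries, and Gabarap 58.5% to 60.9% with FeM CM and 65.3% to 67.7% with C CM. The log2 difference of Gabarapl1 and Gabarap in a library was higher with FeM CM by 0.69, and that of Gabarapl1 and Gabarapl2 by 0.66, with no overlap between the media.

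**Figure D4:**
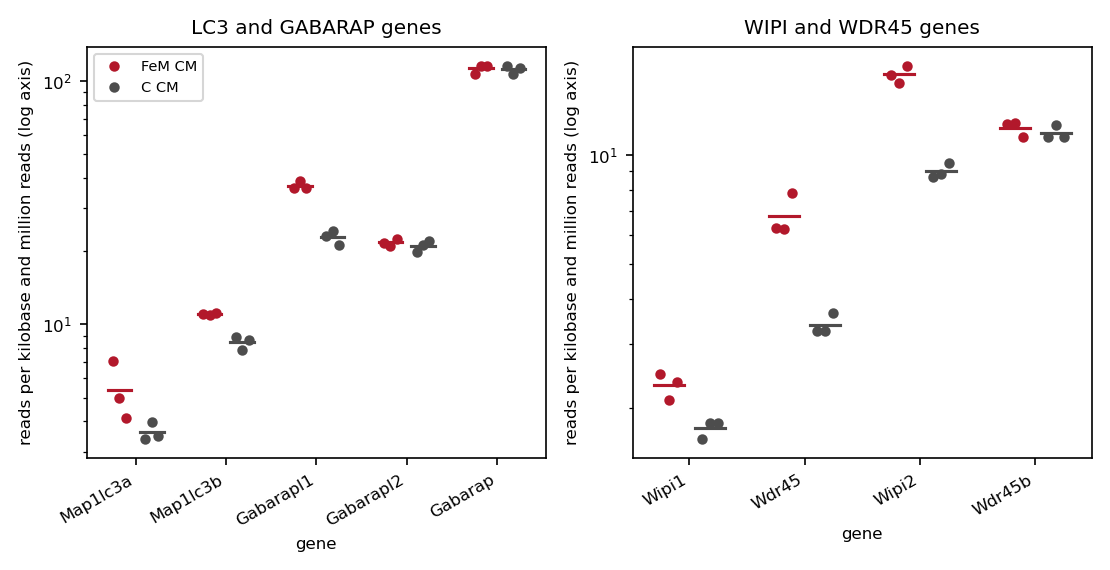
RPKM, reads scaled to exon length and library size (y axis, log scale), of the 5 LC3 and GABARAP genes (left panel) and of the 4 WIPI and WDR45 genes (right panel) in each FeM CM library (red points) and C CM library (grey points), with bars at the group means. Gabarapl1 at 37.2 and 22.8, Wipi2 at 16.7 and 9.01 and Wdr45 at 6.78 and 3.39 (means with FeM CM and with C CM) show separated groups, while those of Gabarap and Wdr45b overlap.

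The 4 ATG4 proteases trim LC3 and GABARAP proteins before use and release them afterwards. Of their genes, 2 rose (50%, against 19.7% of all genes tested). Atg4a had 1024, 1006 and 1002 normalized counts with FeM CM and 732, 777 and 837 with C CM (log2 fold change 0.37, SE 0.07; limma adjusted p = 0.00297). The row named Atg4a-ps, a further one found by the rule, had 113, 127 and 133 with FeM CM and 98.9, 84.1 and 86.2 with C CM (0.46, SE 0.16; limma adjusted p = 0.0403). It lost its call without FeM CM replicate 2 (0.102), FeM CM replicate 3 (0.106), C CM replicate 2 (0.113) or C CM replicate 3 (0.101). Of all 50-base stretches in the transcripts of Atg4a, 51.2% also occur in those of Atg4a-ps. Of those of Atg4a-ps, 66.3% occur in protein-coding transcripts of Atg4a. The reads of these 2 rows may thus not be fully told apart, though both count among the 22 called higher.

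Atg4c had 792, 918 and 935 normalized counts with FeM CM and 692, 744 and 690 with C CM, groups that did not overlap (0.31, SE 0.09; limma adjusted p = 0.0173). Its call was lost without FeM CM replicate 2 (limma adjusted p = 0.0594), FeM CM replicate 3 (0.059), C CM replicate 1 (0.0532) or C CM replicate 3 (0.0543). Atg4b, the protease with the broadest action in mouse and human cells, had 1680, 2089 and 1862 with FeM CM and 1814, 1664 and 1577 with C CM (0.15; limma adjusted p = 0.203). Atg4d had 1563, 1586 and 1541 with FeM CM and 1718, 1643 and 1477 with C CM (-0.04; limma adjusted p = 0.654). The groups of Atg4b and of Atg4d overlapped.

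The 4 tested cargo receptors were all called higher, against 19.7% of all genes tested, but Tex264 and Tax1bp1 lost their call when some libraries were left out. Nbr1 (ENSMUSG00000017119), a receptor for ubiquitylated proteins and peroxisomes, had 5686, 5754 and 5687 normalized counts with FeM CM and 4358, 4440 and 4226 with C CM, tight groups far apart (log2 fold change 0.40, SE 0.04; limma adjusted p = 3.55e-05). Calcoco1, a receptor for the endoplasmic reticulum and the Golgi, had 1181, 1223 and 1081 with FeM CM and 737, 783 and 753 with C CM (0.61, SE 0.07; limma adjusted p = 0.00016). Tex264, a membrane receptor for uptake of the endoplasmic reticulum, had 1566, 1430 and 1836 with FeM CM and 1214, 877 and 1174 with C CM (0.57, SE 0.15; limma adjusted p = 0.0197).

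The Tex264 groups were separate but wide, and the call was lost without FeM CM replicate 1 (limma adjusted p = 0.0634) or FeM CM replicate 3 (0.0527). Tax1bp1, a receptor that also dampens NF-kB signalling through TNFAIP3, had the smallest rise of all called genes, with 6346, 6618 and 6852 normalized counts with FeM CM and 5977, 6078 and 5900 with C CM (0.14, SE 0.04; limma adjusted p = 0.0176). It lost the call without FeM CM replicate 3 (0.0548) or C CM replicate 3 (0.064).

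Paralogs were compared directly in 10 pairs, by the difference of their log2 values within each library. With 3 libraries against 3 the two-sided exact permutation test cannot go below p = 0.1, and no pair could therefore pass. This smallest value was reached by 6 pairs (adjusted p = 0.167 over the 10), in which the groups did not overlap. Such separation was common among single genes: 25.6% of all genes tested lay fully above with FeM CM and 28.2% fully below. The share among other gene pairs was not computed. The shift between the media was 0.99 for Atg9a minus Atg9b, 0.69 for Gabarapl1 minus Gabarap, 0.66 for Gabarapl1 minus Gabarapl2, -0.50 for Wipi1 minus Wipi2, 0.36 for Atg2a minus Atg2b and 0.35 for Atg4c minus Atg4d. The pairs of Ulk1 and Ulk2, Map1lc3a and Map1lc3b, Atg16l1 and Atg16l2, and Atg4a and Atg4b overlapped between the media (shifts of 0.04, 0.15, 0.13 and 0.22; adjusted p from 0.286 to 0.7).

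The promoters of the genes were read from RefSeq (build GRCm38.p6), as windows of 300 bases from 250 before to 50 after a start site, for the 34 of the 41 genes that matched by symbol (41 windows). They were GC-rich, with a median of 60% G and C and 20 CpG dinucleotides, against 52.7% and 7 over all 32851 windows. They were searched on both strands for CACGTG (the E-box bound by TFEB and TFE3 among others), TGATGNAA (the element of ATF4 with C/EBP), TGACNNNGC (the antioxidant element bound by NRF2) and GTAAACA (the FOXO element). CACGTG stood in windows of 4 of the 34 genes (11.8%, against 8.09% of all 27025 genes), namely Atg3, Atg5, Atg7 and Atg14, of which Atg7 rose. TGACNNNGC stood in 5 (14.7%, against 14% of all genes), namely Atg13, Map1lc3b, Tax1bp1, Ulk2 and Vmp1, of which all but Atg13 rose. Among the 40 tested genes, with or without a motif, 55% rose, against 19.7% of all genes tested. The calls of Tax1bp1 and Ulk2 were lost in at least 1 alternative setting. A link between motif and call was not tested. The other motifs were in none of the 34, against 4.51% and 4.05% of all genes. These shares are descriptions, and a match is not a bound site.

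Windows of 4 genes that rose and hold a match are shown to place the motifs, with those of the largest rise and of the single fall, in lower case with matches in capitals. The Vmp1 match is on the opposite strand, 168 bases before the start, and all 3 of its windows hold one. In Ulk2 and Map1lc3b the match begins 17 bases before and at base 5 after the start, and in Atg7 the E-box begins 132 bases before it. The windows of Wdr45 and Atg9b hold none, and have 3 and 2 CpG dinucleotides. The Atg7 window, with its E-box, has 4, against a median of 20 over the 41 windows. The start sites used in these cells were not measured.
Vmp1, chr11:86683787-86684086, minus strand: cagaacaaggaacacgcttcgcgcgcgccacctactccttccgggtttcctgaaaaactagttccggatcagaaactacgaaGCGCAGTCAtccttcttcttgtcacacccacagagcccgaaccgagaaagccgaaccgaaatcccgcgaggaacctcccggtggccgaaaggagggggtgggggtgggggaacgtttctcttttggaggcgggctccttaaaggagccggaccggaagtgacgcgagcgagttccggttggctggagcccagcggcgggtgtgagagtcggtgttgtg
Ulk2, chr11:61855043-61855342, minus strand: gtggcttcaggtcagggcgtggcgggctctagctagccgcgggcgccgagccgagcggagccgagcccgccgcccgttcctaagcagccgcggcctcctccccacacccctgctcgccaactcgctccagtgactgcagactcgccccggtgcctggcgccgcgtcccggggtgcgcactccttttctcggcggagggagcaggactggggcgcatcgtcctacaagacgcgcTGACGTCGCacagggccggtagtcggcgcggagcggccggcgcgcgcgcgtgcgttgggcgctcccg
Map1lc3b, chr8:121590188-121590487, plus strand: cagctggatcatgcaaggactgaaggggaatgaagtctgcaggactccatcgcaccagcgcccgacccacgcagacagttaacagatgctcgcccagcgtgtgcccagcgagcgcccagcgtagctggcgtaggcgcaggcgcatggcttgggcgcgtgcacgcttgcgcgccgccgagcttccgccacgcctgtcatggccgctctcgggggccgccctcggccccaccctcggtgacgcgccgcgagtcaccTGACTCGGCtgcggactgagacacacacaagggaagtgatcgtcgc
Atg7, chr6:114670846-114671145, plus strand: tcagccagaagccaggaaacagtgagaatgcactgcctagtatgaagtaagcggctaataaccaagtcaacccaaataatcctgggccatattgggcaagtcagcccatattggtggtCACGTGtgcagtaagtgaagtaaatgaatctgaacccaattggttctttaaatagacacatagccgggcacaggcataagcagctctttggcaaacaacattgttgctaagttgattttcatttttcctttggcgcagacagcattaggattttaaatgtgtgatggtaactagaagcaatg
Wdr45, chrX:7722677-7722976, plus strand: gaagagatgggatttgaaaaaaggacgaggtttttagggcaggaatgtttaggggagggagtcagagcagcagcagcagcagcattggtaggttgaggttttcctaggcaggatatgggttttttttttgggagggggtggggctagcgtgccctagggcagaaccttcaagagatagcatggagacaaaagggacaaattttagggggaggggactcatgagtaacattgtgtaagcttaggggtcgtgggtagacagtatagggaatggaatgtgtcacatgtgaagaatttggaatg
Atg9b, chr5:24392094-24392393, minus strand: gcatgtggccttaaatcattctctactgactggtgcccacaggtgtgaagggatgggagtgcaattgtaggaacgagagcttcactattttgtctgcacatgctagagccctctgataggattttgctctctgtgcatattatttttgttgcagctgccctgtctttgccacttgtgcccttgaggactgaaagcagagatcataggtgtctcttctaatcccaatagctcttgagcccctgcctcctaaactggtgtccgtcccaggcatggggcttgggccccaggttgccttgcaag

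From a list of 43 other autophagy genes, 42 were found by symbol, all but Calcoco2, and 41 were tested, with Stbd1 below the filter. Of these, 16 were higher with FeM CM (39%, against 19.7% of all genes tested) and 5 lower (12.2%, against 22.8%), with a median log2 fold change of 0.16. Among other cargo receptors 5 of 11 rose (45.5%, against 19.7% of all genes tested) and 0 fell (against 22.8%). Sqstm1 (p62), the receptor for ubiquitylated cargo and a partner of NBR1, had 63240, 59880 and 61390 normalized counts with FeM CM and 18780, 19270 and 19830 with C CM (log2 fold change 1.67, SE 0.03; limma adjusted p = 6.89e-09). Per length it stood at 424 ± 13.4 RPKM with FeM CM and 135 ± 3.06 with C CM (SD, n = 3 each), above every gene of the 41 in both media. The mitophagy receptors Bnip3 (0.54) and Bnip3l (0.42) and the aggregate adaptor Wdfy3 (0.37) also rose (limma adjusted p from 5.41e-05 to 1e-04). Ncoa4, the receptor that delivers ferritin to the lysosome, had a log2 fold change of 0.13 and did not pass (limma adjusted p = 0.126; named after its value was seen).

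Among other regulators 7 of 19 rose (36.8%, against 19.7% of all genes tested) and 2 fell (10.5%, against 22.8%). The rises included Trp53inp2 (0.89), a nuclear-to-cytosol shuttle that binds LC3 and GABARAP proteins, the transcription factor Tfe3 (0.38), Tecpr1 (0.64) and the phosphoinositide-binding Zfyve1 (0.65), with limma adjusted p-values at or below 0.000306. Tfeb, the paralog of Tfe3 and a master regulator of autophagy and lysosome genes, fell (-0.43; limma adjusted p = 0.00843), as did Wdr41 (-0.57; limma adjusted p = 7.45e-05), which acts with Smcr8. Among genes for fusion with the lysosome 4 of 11 rose (36.4%, against 19.7% of all genes tested) and 3 fell (27.3%, near the 22.8% of all genes tested). Epg5, a tether for fusion, had 4194, 4179 and 4395 normalized counts with FeM CM and 2193, 2314 and 2438 with C CM (0.88; limma adjusted p = 2.22e-06), and Lamp2 (0.20), Snap29 (0.19) and Vps39 (0.19) rose by less. Lamp1 (-0.28), the tethering adaptor Plekhm1 (-0.26) and the autophagosomal SNARE Stx17 (-0.25) fell (limma adjusted p at or below 0.0179).

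Sequence sharing was checked for all 41 genes. In 14 of them no 50-base stretch of their transcripts occurs in a transcript of another gene, and in 9 more than 10% do. Those 9 include Atg9a, with 30.5% (mainly Gm29253), and Atg4d, with 14.6% (mainly Kri1 on the opposite strand), neither of which passed. Gabarapl2 had 12.2% and Map1lc3b 6.01%, mainly shared with processed pseudogenes.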

How the data were processed

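The labels' protocols describe total RNA from 6 microglia samples and mRNA libraries sequenced on an Illumina instrument. The submitters' processing notes name R 3.4.3 with DESeq2 1.18.1, the aligner HISAT2 2.1.0 and the read trimmer fastp 0.17.1. Genome build, annotation and counting tool: not given in the sources used. The authors deposited log2 values, with their own log2 fold change, p-value and false discovery rate, for 26096 genes, and FPKM values for the 1699 genes of a shorter table. With the log undone and 1 subtracted, the deposited log2 values were counts scaled by a size factor: 100% were whole multiples, within 0.01, of the value of a single read. Reads and depths were worked out from that step and could be rounded estimates.

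Computed here: limma 3.58.1 (trend and robust, two-sided, medium as the only term) under R 4.3.3. It was run on those log2 values for the 15597 genes that reached 10 normalized counts in 3 or more libraries. P-values were adjusted by Benjamini-Hochberg over these genes, with a threshold of 0.05. The test was checked on simulated data. RPKM used exon lengths from GENCODE M21, which holds all 41 genes and 99.8% of all gene IDs, and was 1.13 times the deposited FPKM at the median of 5268 values of at least 50 reads. Libraries within a medium differed beyond sampling noise (chi-square per degree of freedom 16.4 to 22.9). Intervals are 95% intervals from limma. The genes, lists and motifs were chosen with earlier results of these data known. Named genes were every gene of the rule and, of other autophagy genes, up to 4 per role and direction with the smallest p-values, with Sqstm1 always. Alternatives were 2 lower filters, a pseudocount of 0.5, quantile normalization, TMM scaling with voom, limma without trend or robust, a replicate block, leaving out each library, and a threshold of 0.01.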

Additional observations from a re-analysis of the deposited data

How the results depend on the processing

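The number of genes called higher was 22, against 18 to 25 under the other filters, scalings, pseudocount, variance model and replicate block, and 16 to 19 with 1 library left out. At a threshold of 0.01, 13 of the 40 were higher, against 13.9% of all genes tested, and 1 was lower, against 16.7%. The number called lower was 1 in each of these but 1 to 2 with 1 library left out, where Ambra1 or Uvrag joined Atg9b. Over all genes, 2668 to 2848 were called higher and 3030 to 3371 lower with 1 library left out, against 3077 and 3552. Beside the libraries named in the report, Ulk1 and Map1lc3a lost their call with the filter at 1 normalized count (limma adjusted p = 0.0535 for Ulk1 and 0.0613 for Map1lc3a), with no filter (0.0594 and 0.0572) and without trend or robust (0.0743 and 0.0886). Tax1bp1 lost it without trend or robust (0.0707), and Atg4a-ps with no filter (0.0658) and with quantile normalization (0.0714). Quantile normalization called Pik3r4 (limma adjusted p = 0.0272), Atg9a (0.0308), Atg16l1 (0.0236) and Atg101 (0.033) as well, and TMM with voom Atg101 (0.0455). The cause was not tested. Reversed directions were limited to genes that passed in no setting. Atg2b was 0.04 with quantile normalization, 0.002 with TMM and voom, and -0.081 to 0.046 with 1 library left out. Atg3 was 0.018 with quantile normalization, Atg16l2 was -0.075 to 0.025 with 1 library left out and Atg4d -0.104 to 0.005. Same-numbered libraries of the 2 media did not deviate together (correlations 0.009, -0.02 and -0.039 across genes, and 0 of 3 correlated best with its own number). No sign of pairing by number was thus seen. With 3 libraries per medium this cannot settle whether same-numbered samples were processed together, and the labels do not say. The fit with the replicate block called 18 genes higher and 1 lower, without Ulk1, Map1lc3a, Atg10 and Atg4a-ps. In the authors' deposited table the false discovery rate was under 0.05 for 22 higher genes and 1 lower, which differ from these calls in Atg101 and Atg4a-ps. No scaling moved the median of all genes by more than 0.1 on the log2 scale. Optn was too low to test, with 12 reads over the 6 libraries and means of 0.015 RPKM with FeM CM and 0.01 with C CM.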
